A study of Rattus norvegicus with 8 samples.

Results

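The genes described here encode the constitutive proteasome, the form of this protease that every cell makes. They are the rat genes whose symbol is Psm, a letter from a to g and a number, without Psmb8, Psmb9 and Psmb10, which encode the interferon-inducible subunits. The rule uses names alone and no measured value. It found 42 genes with 49 probes among 41012 non-control probes, and 41 of the 42 genes were tested among 24215 genes in all. Of the 41, 39 encode a subunit, regulator or assembly chaperone of the proteasome. The others, Psmc3ip and Psme3ip1, share the letters of the rule but encode no subunit. Psmb11, Psmd11, Psme4, Psmg1 and Psmg3 were not analysed here.

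RNA came from livers of male Wistar/ST rats. Rats of both groups were kept for 5 weeks on a diet rich in fat with fructose in the water, and those of the Eucommia group were also given an extract of Eucommia ulmoides leaves to drink, which the control group was not. From each sample 500 ng of total RNA was labelled with Cy3 and hybridized to an Agilent array, with 4 arrays in each group. Neither group was on an ordinary diet, so every value below compares extract with no extract on this diet.

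The proteasome is a barrel-shaped protease that degrades proteins tagged with ubiquitin. Its core is built of alpha rings, which gate the entry, and beta rings, which carry the catalytic sites. A regulatory particle caps the core: its base holds the ATPases that unfold the substrate, and its lid removes the ubiquitin chain. Activators can replace that cap, chaperones assemble the parts, and under interferon the catalytic beta subunits are exchanged for immunoproteasome subunits. In many cells the subunit genes are regulated together through the transcription factor Nfe2l1, and Nfe2l2 can raise them under oxidative stress.

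The liver label was borne out by hepatocyte markers: 10 of 10 were tested, with a median log2 signal of 9.48 on a scale where 0 is each array's 75th percentile. Of the 10, 8 had a log2 fold change below 0 (median -0.20), and 1, Tf (-0.55), was called lower. No skeletal muscle marker passed the filter on dim probes. The 4 control arrays shared slide 1 and the 4 Eucommia arrays shared slide 2, so slide and treatment cannot be told apart in any comparison. On the control arrays 58.9% to 61.5% of spots were well above background, against 69.3% to 71.9% on the Eucommia arrays. All 41 genes were well above background on 8 of 8 arrays, and no spot was saturated. Among markers of other cells, the summed pancreatic acinar level was 0.29 to 0.55 on control and 1.18 to 1.76 on Eucommia arrays. Of its 5 tested markers Ctrb1 (1.79) and Cela2a (1.11) were called higher, Pnlip, Cpb1 and Amy2a3 did not pass, and Cela1, Cpa1 and Prss1 were not well above background. Cd3d (0.85) of T cells, Cdh5 (1.01) of endothelium and Col1a1 (0.83) of stellate cells were also called higher, each alone in its list. Below 0 were 3 of 6 tested T and NK markers, 2 of 4 endothelial markers and 1 of 5 stellate markers. Their part in the results was not tested. In whole liver, fewer cells of a type and less RNA per cell cannot be told apart.

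The measured differences in the constitutive proteasome were small, and 1 gene passed the test. Of the 41 genes, 0 were higher and 1, the lid subunit Psmd6, was lower in the Eucommia livers at an adjusted p under 0.05 (limma). Across all 24215 genes 24.7% were called, 18.6% higher and 6.12% lower. Across the 8758 genes as bright as the 75th percentile or brighter, where most proteasome genes lie, 9.61% were called, 3.75% higher and 5.87% lower. At an unadjusted p under 0.05 in limma, 1 of the 41 was higher (Psmc2) and 1 lower (Psmd6). The median log2 fold change of the 41 was -0.011, beside 0.023 over all genes and -0.037 over the bright genes. Single genes ran from -0.38 to 0.25, with 18 above and 23 below 0.

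The arrays measured these genes closely enough to bound the differences. The standard error of the log2 fold change ran from 0.076 to 0.15 over the 41 genes. The 95% interval lay within a 1.5-fold change in either direction for 40 of 41, beside 49.9% of all genes and 78% of the bright genes. Only the interval of Psmd6 reached past that bound, and all 41 intervals lay within a 2-fold change. The groups did not overlap for 3 of 41 genes (Psmd6, Psmd7 and Psmd2), beside 28.6% of all genes and 16.9% of bright genes. These bounds and counts hold for that scaling. With arrays centred on their median, the 41 ran from -0.64 to -0.0059 and 13 were called lower. The median of all genes was then -0.23.

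**Figure D1:**
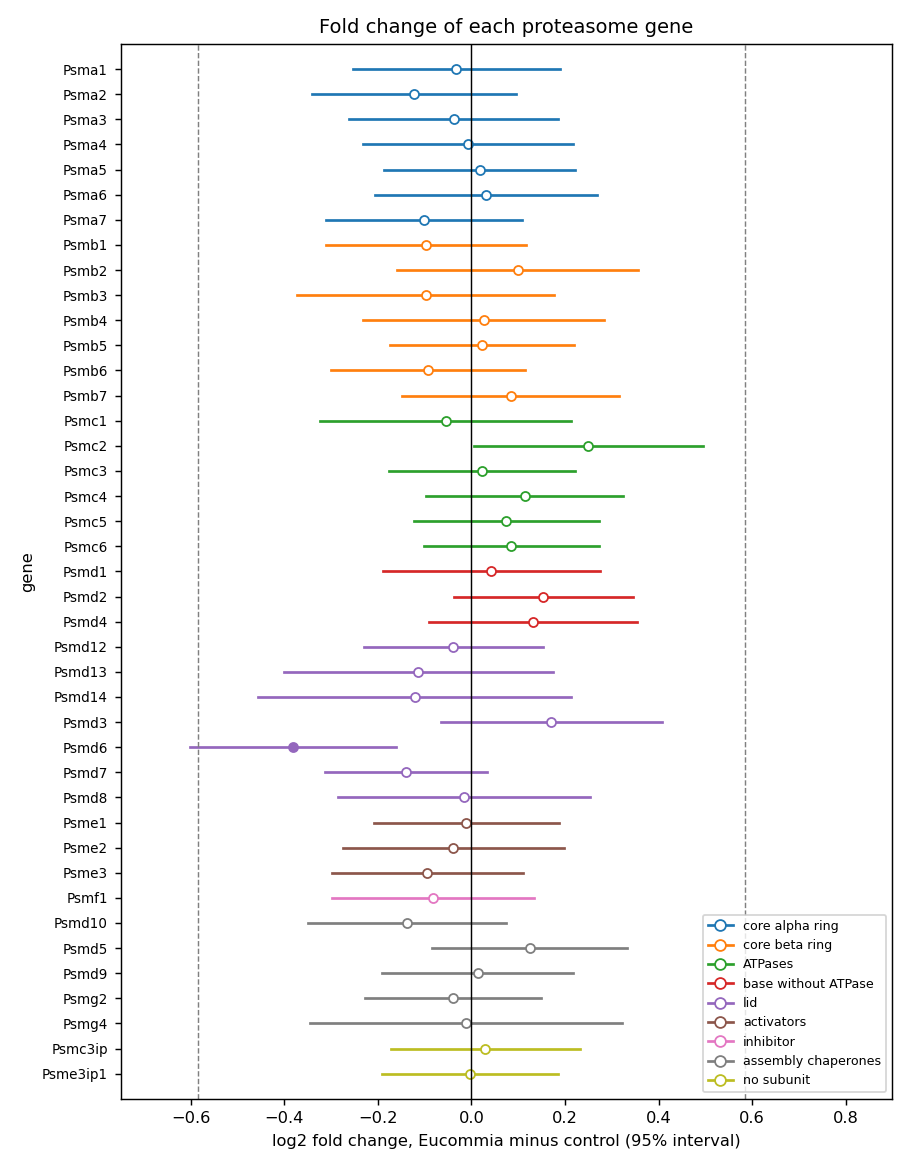
Log2 fold change of each of the 41 proteasome genes (x axis, Eucommia minus control), with the 95% interval from limma as a bar and the role as colour; a filled point is a gene with an adjusted p under 0.05 and dashed lines mark a 1.5-fold change. Psmd6 is the filled point, at -0.38, and its bar alone crosses a dashed line.

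**Figure D2:**
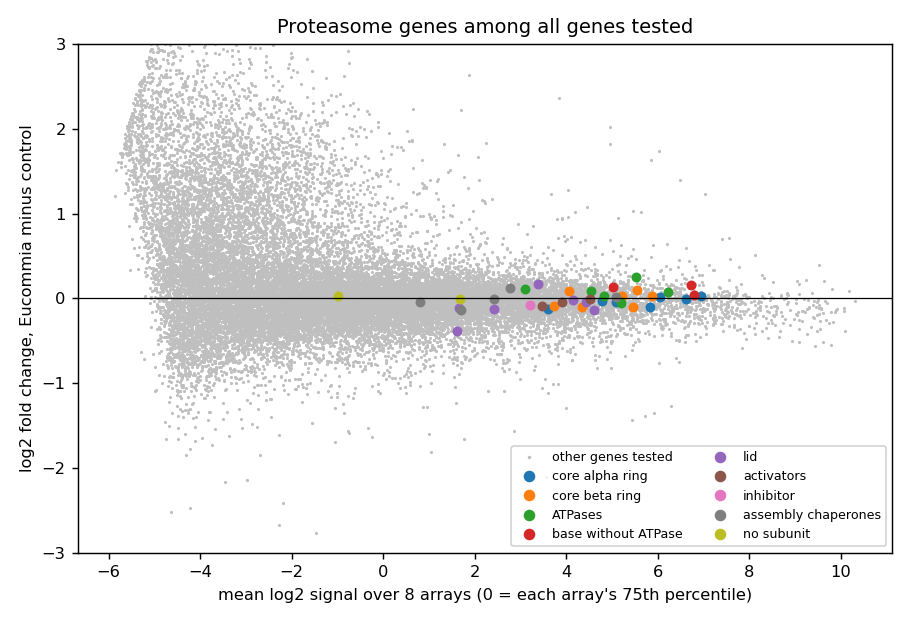
Log2 fold change (y axis, Eucommia minus control) against the mean log2 signal over 8 arrays (x axis) for all genes tested, with the proteasome genes coloured by role; 90 genes lie beyond the plotted limit of 3 on the y axis. The proteasome genes sit on the bright side, between -0.38 and 0.25, while the wide upward spread of grey points is at low signal.

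The promoters of a catalytic subunit, of the ATPase with the largest positive fold change and of an immunoproteasome subunit are shown because they span what was measured: Psmb5 did not pass the test, Psmc2 passed under some scalings, and Psmb8 fell. Each is RefSeq sequence of build GRCr8, 250 bases before to 50 after the gene's start, written 5′ to 3′ on the strand of the gene. Psmb5 is at chr15:32047330-32047629, Psmc2 at chr4:14162341-14162640 and Psmb8 at chr20:4656982-4657281, each on the minus strand. Capitals mark matches, on either strand, to TGANNNNGC, CCAAT (bound by the factor NF-Y), CCGGAAG (an ETS factor motif) and TATAAA (the TATA box). TGANNNNGC is a loose form of the core of the antioxidant response element, which Nfe2l1 and Nfe2l2 bind. A match to it need not be such an element.
Psmb5: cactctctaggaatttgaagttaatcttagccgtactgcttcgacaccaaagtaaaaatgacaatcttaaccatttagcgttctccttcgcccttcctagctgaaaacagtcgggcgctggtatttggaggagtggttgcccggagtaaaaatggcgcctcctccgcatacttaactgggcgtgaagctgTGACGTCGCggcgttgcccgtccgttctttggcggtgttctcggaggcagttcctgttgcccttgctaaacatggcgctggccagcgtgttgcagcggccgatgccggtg
Psmc2: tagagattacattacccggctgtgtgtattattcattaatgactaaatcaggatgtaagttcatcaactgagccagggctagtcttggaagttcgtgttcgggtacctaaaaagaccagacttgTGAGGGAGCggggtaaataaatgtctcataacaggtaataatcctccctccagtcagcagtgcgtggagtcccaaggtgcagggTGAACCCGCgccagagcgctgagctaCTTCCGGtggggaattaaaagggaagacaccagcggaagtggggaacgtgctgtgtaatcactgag
Psmb8: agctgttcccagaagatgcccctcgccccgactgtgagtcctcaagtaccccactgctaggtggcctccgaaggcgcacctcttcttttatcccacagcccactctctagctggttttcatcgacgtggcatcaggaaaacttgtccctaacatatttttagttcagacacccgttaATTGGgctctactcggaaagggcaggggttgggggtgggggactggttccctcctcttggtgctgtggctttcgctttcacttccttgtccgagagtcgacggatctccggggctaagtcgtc
The Psmb5 window held TGACGTCGC, a match to TGANNNNGC. The Psmc2 window held TGAGGGAGC and TGAACCCGC, both matches to TGANNNNGC, and CTTCCGG, the reverse complement of CCGGAAG. The Psmb8 window held ATTGG, the reverse complement of CCAAT. None of these matches overlapped another.

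Promoter windows were matched for 37 of the 41 genes, with Psma7, Psmd6, Psmd12 and Psmd14 unmatched, out of a table of 33469 promoters. TGANNNNGC was in 21 of 37 (56.8%), beside 40.5% of all promoters. By role it was in 9 of 13 core windows, 3 of 9 base windows, 4 of 4 lid windows and 0 of 3 activator windows. CCAAT was in 20 of 37 (54.1%), beside 37.5% of all promoters. It was in 9 of 13 core, 3 of 9 base, 2 of 4 lid and 1 of 3 activator windows. CCGGAAG was in 12 of 37 (32.4%), beside 8.75% of all promoters. By role the windows with it were 3 of 13 core, 4 of 9 base, 2 of 4 lid and 1 of 3 activator windows. TATAAA was in 3 of 37 (8.11%), beside 14.2%. Member windows had a median GC content of 56.0%, beside 51.7% over all, and a match is a description of the letters only.

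The alpha ring, which forms the gated entrance of the core, had 0 of 7 genes past the test, with a median log2 fold change of -0.032 and a range of -0.12 to 0.031. Psma6, the highest of the ring, had log2 signals of 6.86, 6.91, 6.99 and 6.94 on control arrays 1 to 4 and of 6.75, 6.89, 7.05 and 7.13 on Eucommia arrays 1 to 4. The Eucommia arrays lay on both sides of the control arrays. Its log2 fold change was 0.031 ± 0.10 (SE, n = 4 per group; adjusted p 0.863), and a second probe of the gene gave -0.15. Psma2, the lowest, read 3.64, 3.65, 3.70 and 3.71 in the control livers and 3.43, 3.48, 3.52 and 3.76 in the Eucommia livers. Eucommia 1 to 3 were below every control array and Eucommia 4 was above them all. The log2 fold change was -0.12 ± 0.096 (adjusted p 0.403), from 3.67 ± 0.035 to 3.55 ± 0.15 (SD, n = 4). Psma1, Psma3, Psma4, Psma5 and Psma7 had adjusted p from 0.477 to 0.967. Psma8, the alpha subunit of the testis, was not well above background on any array and was not tested.

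The beta ring, which holds the catalytic sites, had 0 of 7 genes past the test, with a median of 0.022 and a range of -0.098 to 0.099. Psmb2, the highest, had control values of 5.40, 5.47, 5.58 and 5.56 and Eucommia values of 5.44, 5.57, 5.52 and 5.88. Only Eucommia 4 was above the control arrays. Its log2 fold change was 0.099 ± 0.11 (adjusted p 0.582). Psmb3, the lowest, had 5.42, 5.57, 5.57 and 5.47 in controls and 5.22, 5.40, 5.30 and 5.72 with the extract. Again Eucommia 4 was above all control arrays, while the other 3 were below them all. Its log2 fold change was -0.098 ± 0.12 (adjusted p 0.609). Psmb1 and Psmb4, the remaining structural beta subunits, were at -0.097 and 0.026.

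The catalytic subunits are Psmb6 (cleavage after acidic residues), Psmb7 (trypsin-like) and Psmb5 (chymotrypsin-like). Psmb5 read 5.19, 5.26, 5.19 and 5.17 on the control arrays and 5.13, 5.20, 5.20 and 5.38 on the Eucommia arrays. The groups overlapped, with Eucommia 4 the highest and Eucommia 1 the lowest of the 8. The log2 fold change of Psmb5 was 0.022 ± 0.086, with a 95% interval from -0.17 to 0.22. Psmb6 read 3.74, 3.78, 3.81 and 3.83, then 3.59, 3.64, 3.69 and 3.88 with the extract. Its fold change was -0.093 ± 0.091 (interval -0.30 to 0.11), with 3 Eucommia arrays below the controls and 1 above. Psmb7 read 3.94, 3.94, 4.04 and 4.18 against 3.96, 4.13, 4.07 and 4.28. Its fold change was 0.084 ± 0.10 (interval -0.15 to 0.32), and the groups overlapped.

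The base of the cap, read from the brightest probe of each gene, had 8 of its 9 genes above 0 and 1 below, and none passed the test. The median log2 fold change was 0.080 for the 6 ATPases and 0.13 for the 3 base subunits without ATPase, and they were -0.18 and -0.12 when arrays were centred on their median, which put the median of all genes at -0.23. Psmc2, an ATPase of the ring that unfolds substrates, had 5.36, 5.34, 5.52 and 5.40 in the control group and 5.50, 5.59, 5.62 and 5.91 in the Eucommia group. Eucommia 1 was below Control 3, and the other 3 Eucommia arrays were above every control array. The means were 5.41 ± 0.078 and 5.66 ± 0.18 (SD, n = 4), a log2 fold change of 0.25 ± 0.11 with an adjusted p of 0.133 (limma). Psmc2 passed the test under 3 of 21 other ways of processing: at 0.29 with quantile normalization (adjusted p 0.0352), at 0.32 with cyclic loess (0.0238) and at 0.25 with normexp and quantile normalization (0.0152). Psmc1, the one base gene below 0, had 5.30, 5.13, 5.26 and 5.17 against 4.93, 5.16, 5.12 and 5.44. The Eucommia arrays spanned the whole control range, and the fold change was -0.055 ± 0.12 (adjusted p 0.783). Psmc3, Psmc4, Psmc5 and Psmc6 lay between 0.023 and 0.11. Second probes of Psmc4 and Psmc6 gave -0.043 and -0.026, and with the mean over probes these genes were at 0.035 and 0.029.

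Psmd2, a scaffold of the base on which ubiquitin-binding shuttles dock, had 6.64, 6.59, 6.74 and 6.65 on control arrays against 6.78, 6.76, 6.76 and 6.93 on Eucommia arrays. The groups did not overlap, by a margin that is small beside their spread. The log2 fold change was 0.15 ± 0.084 (interval -0.038 to 0.34; adjusted p 0.233), and a second probe gave 0.21. It passed the test with quantile normalization alone of 21 settings, at 0.24 (adjusted p 0.0433). Psmd1, the other large scaffold, was at 0.042, and Psmd4, a ubiquitin receptor, was at 0.13 (adjusted p 0.38). A second probe of Psmd1 gave -0.21, so the probes of this gene differ in sign, and the mean over probes was -0.082.

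The lid held the one gene that passed the test, and 6 of its 7 genes were below 0, with a median of -0.11 and a range of -0.38 to 0.17. Psmd6, a structural subunit of the lid, had log2 signals of 1.78, 1.72, 1.87 and 1.86 in the control group and of 1.33, 1.30, 1.48 and 1.60 in the Eucommia group. Every Eucommia array was below every control array. Psmd6 fell to 0.768 of the control level, a log2 fold change of -0.38 ± 0.097 (SE, n = 4 per group; interval -0.60 to -0.16; adjusted p 0.0195 in limma). It is read by 1 probe. Its call was lost without Control 3 (-0.36, adjusted p 0.0513), without Eucommia 1 (-0.35, adjusted p 0.0644) or without Eucommia 2 (-0.34, adjusted p 0.0718). It passed in 18 of 21 other settings, between -0.64 and -0.34, with the same sign in all 21.

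**Figure D3:**
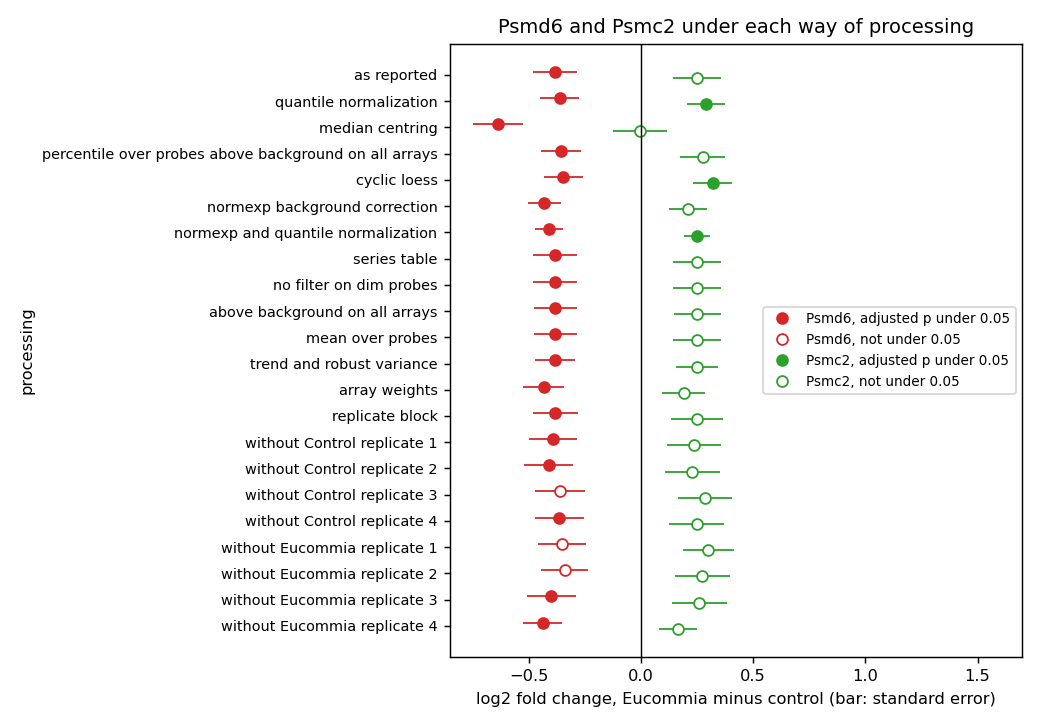
Log2 fold change of Psmd6 (red) and Psmc2 (green), Eucommia minus control, as reported and under each of 21 other ways of processing (y axis); bars are standard errors and filled points have an adjusted p under 0.05. Psmd6 stays between -0.64 and -0.34 with 3 open points, and Psmc2 has 3 filled points.

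Psmd7, the lid subunit that pairs with the deubiquitinase Psmd14, had 4.68, 4.64, 4.68 and 4.73 in controls and 4.58, 4.54, 4.56 and 4.48 with the extract. These groups did not overlap either, and the spread within each was among the smallest of the set. The means were 4.68 ± 0.036 and 4.54 ± 0.044 (SD, n = 4), a log2 fold change of -0.14 ± 0.076 (interval -0.31 to 0.033; adjusted p 0.23). The other probes of Psmd7 gave -0.27 (adjusted p 0.109) and -0.26 (adjusted p 0.134), so all 3 probes pointed the same way without passing the test. Psmd7 was chosen after its values were seen. Psmd14, which cuts ubiquitin chains from the substrate, had 2.47, 2.19, 2.41 and 2.83 against 2.27, 2.33, 2.57 and 2.24. The groups overlapped fully, and its fold change of -0.12 had the widest error of the set (SE 0.15; adjusted p 0.605).

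Psmd3, the highest lid gene, had 3.36, 3.08, 3.27 and 3.45 in controls and 3.45, 3.57, 3.48 and 3.36 with the extract. Control 2 and Control 3 lay below every Eucommia array, and Control 1 and Control 4 inside their range. Its log2 fold change was 0.17 ± 0.10 (interval -0.066 to 0.41; adjusted p 0.283). Psmd8, Psmd12 and Psmd13 were at -0.016, -0.039 and -0.11, with adjusted p from 0.572 to 0.939. The difference between base and lid in direction was not tested.

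The activators Psme1 and Psme2 form an interferon-inducible cap and Psme3 a nuclear one, and 0 of the 3 passed the test. Psme3 had 3.36, 3.58, 3.50 and 3.62 in controls and 3.43, 3.39, 3.38 and 3.48 with the extract. All 4 Eucommia values lay inside the control range, and the log2 fold change was -0.094 ± 0.09 (interval -0.30 to 0.11; adjusted p 0.503). Psme1 was at -0.011 ± 0.087 and Psme2 at -0.038 ± 0.10, and both overlapped between groups. Psmf1, an inhibitor of the core, had 3.28, 3.25, 3.26 and 3.20 against 3.05, 3.08, 3.15 and 3.37. Eucommia 1 to 3 were below the controls and Eucommia 4 above them, for a fold change of -0.082 ± 0.095 (adjusted p 0.587).

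The assembly chaperones had 0 of 5 genes past the test and a median of -0.012. Psmd5, a chaperone of the base, had 2.67, 2.63, 2.67 and 2.89 in controls and 2.76, 2.88, 2.90 and 2.82 with the extract. Control 4 stood above the other 3 controls and inside the Eucommia range, and the fold change was 0.12 ± 0.092 (adjusted p 0.375). Psmd10, also known as gankyrin, a base chaperone, had 1.77, 1.72, 1.76 and 1.82 against 1.59, 1.49, 1.62 and 1.81. Eucommia 4 alone overlapped the controls, and the fold change was -0.14 ± 0.093 (adjusted p 0.332). Psmd9, Psmg2 and Psmg4 were at 0.013, -0.039 and -0.012. The genes that encode no subunit were close to 0 too: Psmc3ip, which acts in meiotic recombination, at 0.03 ± 0.089 and Psme3ip1 at -0.0029 ± 0.083.

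Core and base genes tended to be high or low on the same Eucommia arrays, and lid genes on the same control arrays. Among the 14 core genes, Eucommia 1 was the lowest Eucommia array for 14 and Eucommia 4 the highest for 13. Over all 2038 genes in the same signal range, Eucommia 1 was lowest for 30.2% and Eucommia 4 highest for 63.8%. In the core the SD was larger in the Eucommia than in the control group for 14 of 14 genes, against 57.0% of genes in its signal range. This held in the base for 7 of 9, against 56.0%, but in the lid for 2 of 7, against 51.8%. In the base Eucommia 4 was highest for 8 of 9 genes, beside 62.7% of genes in its signal range, and for 5 of 9 with cyclic loess. Eucommia 1 was lowest for 7 of 9 base genes, beside 30.3%. The lid had another order, in the controls: Control 2 was lowest for 7 of 7 genes and Control 4 highest for 6 of 7, beside 16.5% and 24.3% of all genes in its signal range. Among the Eucommia arrays the lid was less uniform. Eucommia 2 was highest for 3 of 7 and Eucommia 4 lowest for 4 of 7, beside 11.1% and 17.9%. As deviations from each gene's mean, the median core values were -0.048, -0.020, 0.050 and 0.057 on the controls and -0.15, -0.054, -0.026 and 0.16 on the Eucommia arrays. This pattern was chosen after the values were seen, the genes share their arrays, and no test was made of it.

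**Figure D4:**
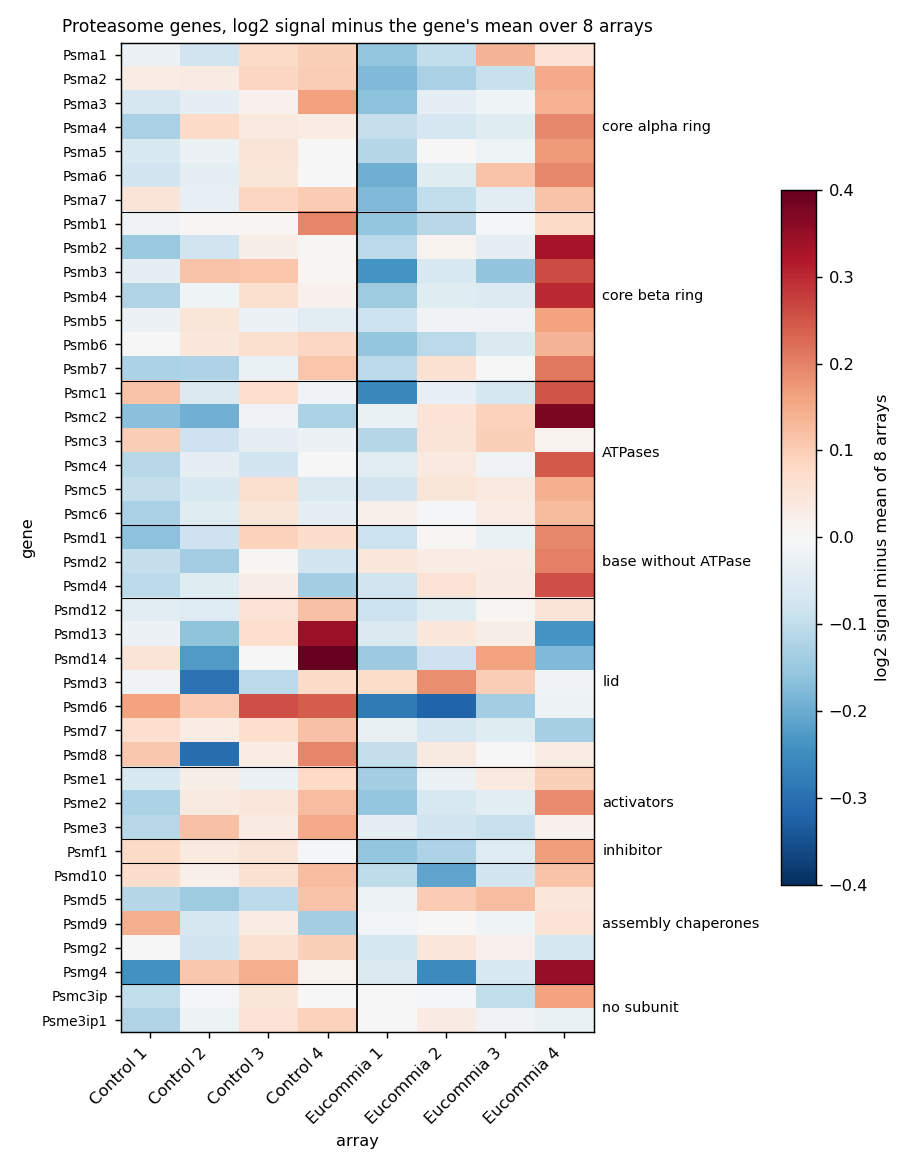
Log2 signal of each proteasome gene minus its mean over 8 arrays (colour, red above and blue below), with genes grouped by role on the y axis and the 4 control and 4 Eucommia arrays on the x axis. Eucommia 1 is blue and Eucommia 4 red through most of the core and base, Psmd6 is red on the controls and blue on Eucommia 1 to 3, and the lid is blue on Control 2.

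The immunoproteasome subunits, which lie outside the rule, replace Psmb5, Psmb6 and Psmb7 when interferon is present, and 1 of the 3 fell. Psmb8 had 3.85, 3.92, 3.92 and 4.09 in controls and 3.43, 3.28, 3.22 and 3.35 with the extract. No Eucommia array reached the lowest control array, and the log2 fold change was -0.62 ± 0.092 (interval -0.83 to -0.41; adjusted p 0.001 in limma), with a call in all 21 other settings. Psmb9 was at -0.17 ± 0.12 (adjusted p 0.333) and Psmb10 at -0.25 ± 0.12 (adjusted p 0.154), and both overlapped between groups. Within arrays, Psmb8 minus its constitutive partner Psmb5 went from -1.26 ± 0.12 to -1.91 ± 0.15 (SD, n = 4), a change of -0.65. Psmb10 minus Psmb7 changed by -0.34 and Psmb9 minus Psmb6 by -0.080. In a 2-sided exact permutation test over 70 splits, p was 0.0286 for Psmb8 with Psmb5 and for Psmb10 with Psmb7, the smallest the design allows, and 0.514 for Psmb9 with Psmb6. Adjusted over the 3 comparisons, which were chosen after the values were seen, these exact p-values were 0.0429, 0.0429 and 0.514. With normexp background correction the exact adjusted p was 0.0857 for both of the first comparisons, at -0.59 and -0.20, and without any 1 of Eucommia 1 to 4 it was 0.0571 or 0.0857.

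Of 13 interferon-stimulated markers 12 were tested, and 4 of the 12 were called lower (Ifit2, Ifit3, Oasl and Tap1), beside 6.12% of all genes. All 12 had a log2 fold change below 0 (median -0.47), and Ifit1 was not well above background. The summed log2 level of the list was 5.42 to 5.57 on control and 4.85 to 5.43 on Eucommia arrays, so the groups overlapped. Macrophage markers summed to 5.88 to 6.55 and 5.53 to 6.16, with 7 of 7 tested below 0 (median -0.52) and 0 called. The part of these markers in the result for Psmb8 was not tested. Psme1 and Psme2, which are also interferon-inducible, did not pass the test.

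**Figure D5:**
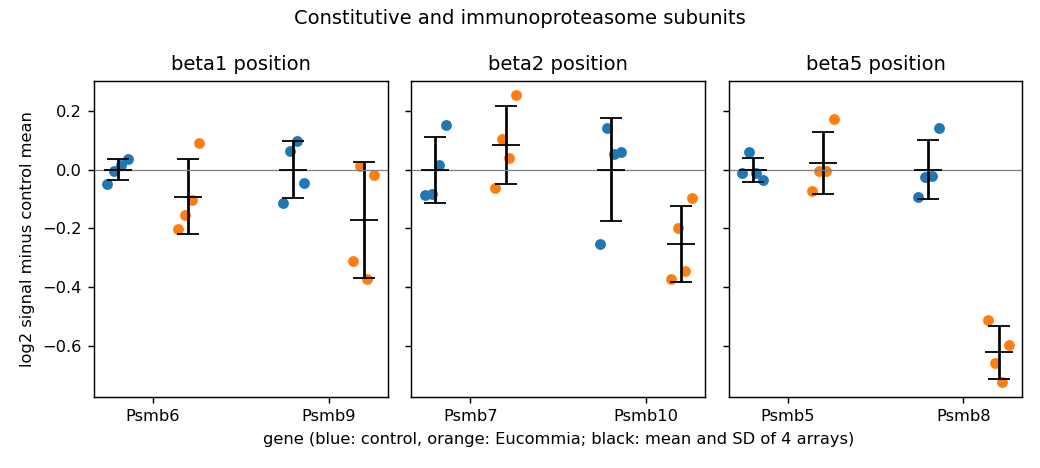
Log2 signal minus the gene's control mean (y axis) for each catalytic subunit and its immunoproteasome counterpart, by position in the beta ring; points are arrays (blue control, orange Eucommia) and black bars are mean and SD of 4 arrays. Psmb8 sits between 0.51 and 0.73 below its control mean on all Eucommia arrays, while Psmb5 stays around 0.

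Outside the Psm symbols, 33 genes of the ubiquitin-proteasome pathway were listed: 24 were tested, 8 had no named probe and 1 (Ddi1) was below the filter. Of the 24, 1 was higher and 1 was lower, with a median of -0.017, beside 18.6% higher and 6.12% lower over all genes. Pomp, the chaperone that matures the core, had 6.31, 6.47, 6.67 and 6.60 in controls and 5.97, 6.26, 6.22 and 6.43 with the extract. The groups overlapped in part, and the log2 fold change of -0.29 ± 0.13 did not pass (adjusted p 0.13). The further subunits Adrm1, a ubiquitin receptor, and Sem1, of the lid, were at 0.052 and -0.13. The transcription factor Nfe2l2 was at -0.21 ± 0.16 (adjusted p 0.402), and Akirin2, which takes the proteasome into the nucleus, at -0.12.

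Among the ubiquitin genes, Rps27a, which encodes ubiquitin fused to a ribosomal protein, had 6.89, 7.25, 7.05 and 6.91 in controls and 6.45, 6.55, 6.48 and 6.92 with the extract. Eucommia 4 overlapped the controls and the other 3 lay below them. Rps27a fell by 0.43 ± 0.13 on the log2 scale (adjusted p 0.0487 in limma), a call lost in 9 of 21 other settings. Without Control 1, 2, 3 or 4, or Eucommia 1, 2 or 3, its value lay between -0.47 and -0.35, with adjusted p from 0.0532 to 0.131. Ubb was at 0.17 with its brightest probe (adjusted p 0.299, with the outlier spot of Eucommia 3 left out) and at -0.52 with another (adjusted p 0.00284), so its direction is unsettled. The segregase subunits Vcp and Ufd1, which extract substrates, were at 0.11 and 0.12, and neither passed.

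Ubqln2, a shuttle that brings ubiquitinated proteins to the proteasome, was the one pathway gene called higher. It had -2.83, -2.39, -2.19 and -2.46 in controls and -1.46, -1.22, -2.003 and -1.52 with the extract. The groups did not overlap, and the log2 fold change was 0.92 ± 0.19 (adjusted p 0.00705 in limma). Ubqln2 was dim, with a mean log2 signal of -2.01 where 0 is each array's 75th percentile. Of all genes 18.6% were called higher, beside 3.75% of those at or above that percentile. A second probe, well above background on 0 control arrays, gave 0.15 (adjusted p 0.665), and the mean over both was 0.53, with the call lost (adjusted p 0.0551). With normexp and quantile normalization the fold change was 0.39 (adjusted p 0.0167). The related shuttles Ubqln1 and Rad23b were at -0.19 and -0.072, neither past the test.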

How the data were processed

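Liver RNA from 4 control and 4 Eucommia samples was hybridized to 1-colour Agilent arrays. The deposited intensity values come from Agilent Feature Extraction 10.1.1.1, per the submitters' processing notes. Per the file headers the processed signal is background-subtracted; the arrays were not scaled to each other. Other flags in the deposited files mark control, outlier, saturated and well-above-background spots. The series table equals the processed signal.

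Signals were put on the log2 scale, minus each array's 75th percentile. Control and outlier spots were left out, spots of a probe averaged, and probes kept if well above background on at least 4 of 8 arrays (27724 probes). Accessions were matched to RefSeq gene symbols of GRCr8 (39.8% of probes named); a gene is read from its brightest probe by mean signal, and unnamed probes were grouped by accession. The groups were tested with limma 3.58.1 (R 4.3.3; lmFit, eBayes, 2-sided), adjusted with Benjamini-Hochberg over all 24215 genes at a threshold of 0.05. Nothing but the numbering states that each array came from a separate rat, so p-values cover only the spread among these samples, which may be technical. The number of arrays limits the precision.

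The members and lists were chosen with earlier results of these data known. Genes named with values on every array are those past the threshold and, in each role, those with the largest positive and negative fold change. Other genes so named (Psmd7, Psmd14, the catalytic subunits and the pathway genes) were chosen after their values were seen. The fit was tested on simulated data. Alternatives were other normalizations, background corrections (normexp on the median signal, offset 50), filters, probe rules, variance models, a replicate block and leaving out each array; array counts and within-array differences were alternatives added after seeing the data. A slide block could not be fitted. A few pathway genes are not reported here. No other sample column was present (0).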

Additional observations from a re-analysis of the deposited data

Results flagged for a closer look

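In 4 of 82 groups of 4 arrays (4.88%) 1 array lay far from the other 3 by Dixon's test, the gap to its nearest neighbour over the range of the group. Chance gives about 5% of groups. Psma4, of the alpha ring, was high on Eucommia 4 at 6.82, with the nearest array at 6.57 (gap over range 0.853). Psmd2, a base scaffold, was high on the same array at 6.93, with the nearest at 6.78 (0.901). Psmb1, of the beta ring, was high on Control 4 at 4.55, with the nearest at 4.36 (0.904). Psmd5, a base chaperone, was high on Control 4 at 2.89, with the nearest at 2.67 (0.851).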

How the results depend on the processing

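With quantile normalization 2 proteasome genes were higher (Psmc2 and Psmd2), with cyclic loess 1 (Psmc2), with normexp before quantile normalization 2 (Psmc2 and Psmc4), and in the other settings 0. The number lower was 1 in most settings, 13 with median centring, 2 with no filter on dim probes (Psma8 added, near the floor) and 0 to 1 with each array left out. Median centring moved the median of all genes to -0.23 and that of the 41 proteasome genes to -0.27, so relative to all genes they stood at -0.034, as in the values reported. Under it the medians were -0.28 for the core, -0.18 for ATPases, -0.12 for the base without ATPase, -0.37 for the lid, -0.29 for activators and -0.27 for chaperones. With Psmb8, Psmb9 and Psmb10 included, pathway genes numbered 1 higher and 2 lower in the values reported. Those higher numbered 2 with quantile normalization, also 2 where normexp preceded it, and 0 with the mean over probes. Those lower numbered 13 with median centring, 1 with the percentile taken over probes detected on every array, and 1 to 2 with each array left out. They numbered 3 with normexp, alone or before quantile normalization, with no filter on dim probes, and with only probes above background on all arrays.

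Signs turned only for genes that had not passed in the values reported. Under median centring 18 of the 41 genes turned, all to below 0 and 0 of them called. Those among the genes chosen by the naming rule were Psma6 -0.22, Psmb2 -0.16, Psmc2 -0.0059, Psmd2 -0.10, Psmd3 -0.085, Psmd5 -0.13 and Psmc3ip -0.23. Psmc3ip was also at -0.044 (quantile), -0.0083 (cyclic loess), -0.058 (normexp and quantile), -0.0041 (array weights) and -0.019 at its lowest with 1 array left out (highest 0.068). Psme3ip1 was at 0.015 (quantile), 0.022 (percentile over probes above background) and 0.034 (cyclic loess), and from -0.044 to 0.027 with 1 array left out. Psma6 was at -0.060 (mean over probes) and -0.024 (array weights), and from -0.028 to 0.10 with 1 array left out. Psmc1 was at 0.013 (cyclic loess), and from -0.15 to 0.022 with 1 array left out. The signs that held least often were those of Psma4 and Psmd8, the same in 12 of 21 settings, and Psmg4, in 13.

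With normexp the within-array differences were -0.59 for Psmb8 minus Psmb5 and -0.20 for Psmb10 minus Psmb7, each with an exact adjusted p of 0.0857. With 1 array left out they ran from -0.71 to -0.59 and from -0.39 to -0.26, and the adjusted exact p rose to 0.0571 or 0.0857 without any 1 Eucommia array. In the values reported, Psmb8 minus Psmb5 was -1.35 to -1.09 on control arrays and -2.03 to -1.70 on Eucommia arrays, without overlap.

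Same-numbered arrays did not deviate together (r of -0.041, -0.026, -0.062 and -0.10 over 24195 genes). No pairing by number was seen, though these values cannot exclude a weak one. With the replicate block 5005 of all genes were called in place of 5990, proteasome genes kept 0 higher and 1 lower, and pathway genes lower numbered 1. The slide as a block was not run.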
